A study of Mus musculus with 8 samples.

Results

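The circadian clock genes described here are the 10 genes Arntl, Clock, Per1, Per2, Per3, Cry1, Cry2, Nr1d1, Nr1d2 and Dbp. They were chosen by symbol, and all 10 were found among the 43629 genes of the count table and in the FPKM table. Polyadenylated RNA was sequenced from 4 tumor libraries and 4 small intestine libraries. Every library came from mice labelled as Apc mutant, on a C57B6/129 strain background, with no treatment. The labels name neither the Apc allele nor the age or sex of the animals, do not say which libraries share an animal, and give no time of day for tissue collection. Since separate animals are not stated for libraries of one group, p-values cover the spread among these samples alone, and that spread may be technical.

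In mammals the clock runs as a set of transcriptional feedback loops. Arntl (also called Bmal1) and Clock encode partner proteins that bind E-box sequences and switch on the Per, Cry and Nr1d genes as well as Dbp. The PER and CRY proteins then repress the ARNTL-CLOCK pair, the NR1D proteins (REV-ERBs) repress Arntl through RORE sequences, and DBP acts on D-box sequences. Each transcript has its own daily peak, with Arntl in antiphase to Dbp and the Per genes, and in the intestine the clock follows feeding time as well as light.

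Start regions of the clock genes that hold such sequences, and of 1 partner gene, are shown first. RefSeq start windows (build GRCm38.p6, 250 bases before to 50 after each start) were found for 9 of the 10 clock genes, the exception being Per2, and 13 windows were searched on both strands. The E-box was searched as CACGTG, the D-box as TTATGTAA or TTACGTAA, and the RORE core as TAGGTCA or TGGGTCA. An E-box was present in windows of 2 clock genes, a D-box in 1 and a RORE core in 1. Of all 32851 windows in the table, 7.15% held the E-box, 1.06% the D-box and 6.45% the RORE core. A match describes the letters only.
The windows below read 5′ to 3′ on the strand of the gene, with every match in capitals: Per1 (chr11:69098699-69098998, plus strand), Cry1 (chr10:85185005-85185304, minus strand), Per3 (chr4:151044616-151044915, minus strand), Arntl (chr7:113207261-113207560, plus strand) and, from the partner genes, Ciart (chr3:95882179-95882478, minus strand).
Per1: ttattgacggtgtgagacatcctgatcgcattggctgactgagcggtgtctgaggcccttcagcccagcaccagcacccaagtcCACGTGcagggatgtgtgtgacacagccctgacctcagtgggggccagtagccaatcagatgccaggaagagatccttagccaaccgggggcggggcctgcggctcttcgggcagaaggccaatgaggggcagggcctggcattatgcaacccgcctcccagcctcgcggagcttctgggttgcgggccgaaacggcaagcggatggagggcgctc
Cry1: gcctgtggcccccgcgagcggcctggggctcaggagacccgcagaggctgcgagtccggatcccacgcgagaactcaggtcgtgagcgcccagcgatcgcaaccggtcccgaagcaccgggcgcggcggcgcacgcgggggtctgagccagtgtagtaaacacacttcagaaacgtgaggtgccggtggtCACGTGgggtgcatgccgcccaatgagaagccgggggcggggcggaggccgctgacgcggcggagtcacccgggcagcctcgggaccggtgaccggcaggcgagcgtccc
Per3: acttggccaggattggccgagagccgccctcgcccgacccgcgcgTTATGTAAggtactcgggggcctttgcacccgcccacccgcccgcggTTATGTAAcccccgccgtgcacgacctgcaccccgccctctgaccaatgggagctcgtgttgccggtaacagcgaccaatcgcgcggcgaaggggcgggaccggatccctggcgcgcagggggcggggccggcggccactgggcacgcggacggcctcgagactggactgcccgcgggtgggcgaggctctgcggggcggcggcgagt
Arntl: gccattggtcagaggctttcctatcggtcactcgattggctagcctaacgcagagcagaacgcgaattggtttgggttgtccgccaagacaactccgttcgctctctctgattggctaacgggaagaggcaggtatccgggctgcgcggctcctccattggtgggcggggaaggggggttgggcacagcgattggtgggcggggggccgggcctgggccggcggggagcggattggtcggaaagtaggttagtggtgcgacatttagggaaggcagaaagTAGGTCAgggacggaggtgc
Ciart: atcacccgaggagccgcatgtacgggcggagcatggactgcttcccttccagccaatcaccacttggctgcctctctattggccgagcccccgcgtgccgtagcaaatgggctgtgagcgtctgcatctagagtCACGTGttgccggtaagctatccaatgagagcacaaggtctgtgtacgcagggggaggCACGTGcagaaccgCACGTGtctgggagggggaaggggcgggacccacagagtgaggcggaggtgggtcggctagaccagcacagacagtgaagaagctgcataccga
The capitals mark 1 E-box in Per1, 1 in Cry1 and 3 in Ciart, which encodes a repressor of ARNTL-CLOCK. In Per3 they mark 2 D-boxes. In Arntl they mark 1 RORE core, which begins 30 bases after that start. None of the marked matches overlapped another. Among partner genes whose windows are not printed, Tef and Bhlhe41 held an E-box, Nfil3 a RORE core and Timeless a D-box.

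In tumor, all 10 clock genes were lower than in small intestine with trimmed-mean (TMM) scaling, but only 5 of them were lower when counts were scaled to library totals alone, and Clock was then higher. The largest differences were those of Nr1d1, Dbp and Per2, and these held under each scaling tried and in the FPKM table. With TMM scaling, which adjusts library sizes so that the bulk of genes centres near no change, all 10 fell at an adjusted p under 0.05 (edgeR quasi-likelihood, Benjamini-Hochberg over 17029 genes). In the same test 35.4% of all genes were called lower, 38.9% higher and 74.3% in either direction, so a call by itself was common. A called fall of at least 2-fold was seen in 7 of the 10 and in 22.8% of all genes. The median log2 fold change of the 10 was -1.54, beside 0.07 over all genes tested, and their range ran from -3.63 to -0.55. In 8 of the 10 every tumor library lay below every small intestine library, as it did for 33.0% of all genes, while 70.5% were apart in either direction.

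With library totals alone, the median log2 fold change of all genes was 0.86 higher. Under that scaling Per2, Cry2, Nr1d1, Nr1d2 and Dbp were lower in tumor and Clock was higher, against 17.6% of all genes called lower and 62.0% called higher. Measured against the median of all genes under the same scaling, each of the 10 stood below it, from -0.61 for Clock to -3.69 for Nr1d1. With TMM scaling these distances were -0.62 and -3.70. The change of scaling moved all genes nearly alike, so the distances restate the TMM result and add no separate support. On log2(FPKM + 1) of the deposited FPKM values (limma), Per2, Cry2, Nr1d1 and Dbp were lower and Clock was higher, against 18.1% lower, 64.6% higher and 82.7% in either direction among 12849 genes. These libraries do not show which scaling is right, so for Arntl, Clock, Per1, Per3 and Cry1 the change in level depends on it. In bulk RNA, fewer cells of a type and less RNA per cell cannot be told apart.

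**Figure D1:**
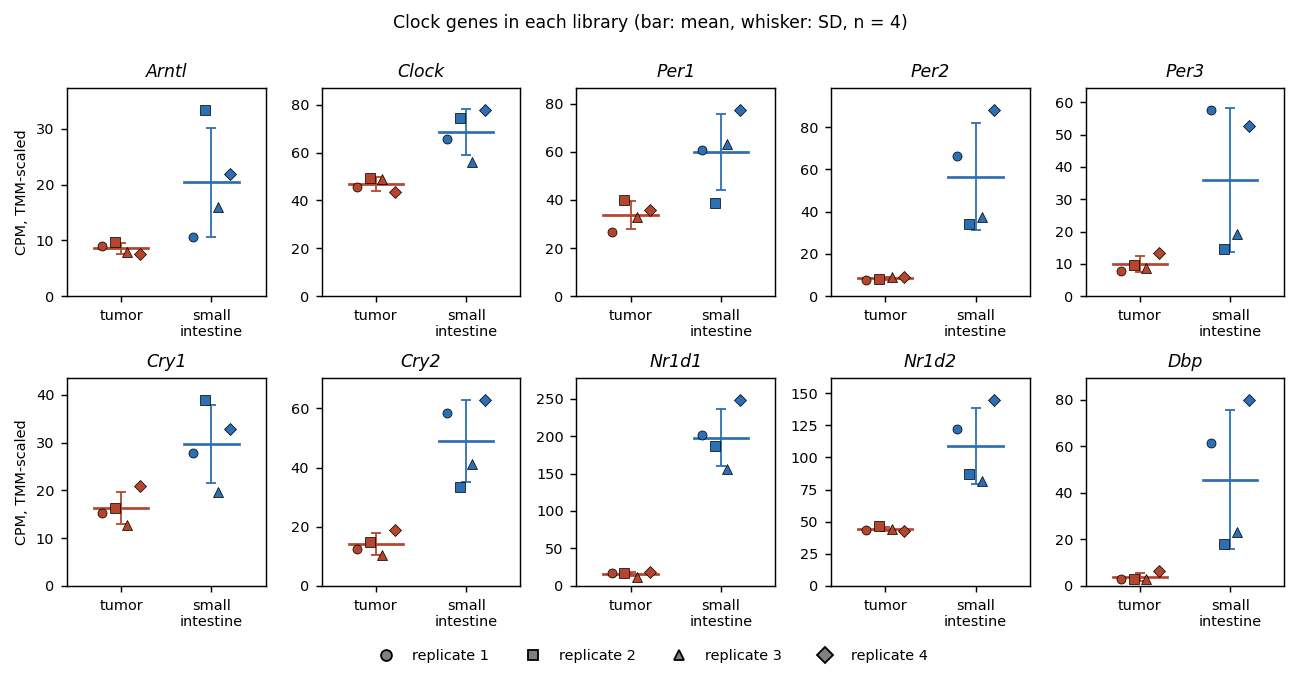
TMM-scaled CPM of the 10 clock genes in each tumor library (left, red) and each small intestine library (right, blue), with the marker shape giving the replicate number, the horizontal bar the mean and the whisker the SD (n = 4 each). The groups overlap for Per1 and Cry1 alone, and the small intestine libraries lie far apart for Dbp, Per3, Per2 and Arntl.

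The repressors Nr1d1 and Nr1d2 encode REV-ERB nuclear receptors, which are bound by haem and shut down Arntl transcription. Nr1d1 (ENSMUSG00000020889, GRCm38 chromosome 11 from 98767932 to 98775333, minus strand) was at 16.9, 16.7, 12.3 and 18.0 CPM (the gene's reads scaled to a common library size with TMM) in tumor replicates 1 to 4, and at 201, 186, 156 and 248 CPM in small intestine replicates 1 to 4. Every tumor library lay far below the lowest small intestine library. Its log2 fold change was -3.63 ± 0.18 (SE), a level 12.4-fold lower in tumor (edgeR adjusted p = 2.33e-07), and -2.76 with library totals alone. Nr1d2 (ENSMUSG00000021775, chromosome 14 from 18204054 to 18239127) was at 43.7, 46.6, 44.3 and 42.3 CPM in tumor against 122, 87.3, 81.5 and 145 CPM in small intestine. It varied less among the tumor libraries than any other of the 10, with a highest-to-lowest ratio of 1.10, and the groups did not overlap. Its log2 fold change was smaller, -1.30 ± 0.18 (edgeR adjusted p = 0.000119), and -0.43 with library totals alone (edgeR adjusted p = 0.0359). In the FPKM table Nr1d2 was at 13.0 to 13.7 in tumor and 12.7 to 21.9 in small intestine, a difference that did not pass (limma adjusted p = 0.135).

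Dbp encodes a PAR-domain transcription factor whose own transcript is among the strongest rhythmic outputs of the clock in mouse tissues. Dbp (ENSMUSG00000059824, chromosome 7 from 45705088 to 45710203, plus strand) was at 2.96, 3.10, 3.0 and 6.20 CPM in tumor, against 61.3, 18.1, 23.2 and 80.0 CPM in small intestine. Tumor replicate 4 was the highest tumor library and was still below the lowest small intestine library, while small intestine replicates 1 and 4 were well above replicates 2 and 3. For Dbp the log2 fold change was -3.58 ± 0.52 (edgeR adjusted p = 0.000191), with -2.70 under library totals alone and a difference of -2.60 on the log2(FPKM + 1) scale (limma adjusted p = 0.000411).

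Exons of both genes overlap a neighbour on the opposite strand, and whether counting used the strand is not given. Nr1d1 shares 263 of its 3077 exon bases with Thra, which encodes a thyroid hormone receptor, and Dbp shares 539 of 2993 with Sphk2, which encodes a sphingosine kinase. Thra showed a log2 fold change of -2.05 and Sphk2 of -1.84, so reads of these neighbours were also fewer in tumor. Their part in the values of Nr1d1 and Dbp was not tested. Among small intestine libraries Sphk2 was highest in replicate 4 at 171 CPM, as Dbp was. Sphk2 was lowest in replicate 1 at 122 CPM, and Dbp was lowest in replicate 2. Of the other clock genes, Cry2 shares 295 bases with a noncoding transcript that held 75 counts in all 8 libraries together, and Arntl shares 33 bases with an antisense transcript.

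The Per genes encode the PERIOD proteins, which enter the nucleus with the CRY proteins. Per2 (ENSMUSG00000055866, chromosome 1 from 91415982 to 91459324) was at 7.47, 8.38, 9.10 and 9.08 CPM in tumor and at 66.2, 34.3, 37.6 and 88.0 CPM in small intestine. The tumor libraries lay in a narrow band, and the groups did not overlap. On the log2 scale the change was -2.73 ± 0.30 (edgeR adjusted p = 2.63e-05), -1.86 with library totals alone, and -1.34 as a difference of log2(FPKM + 1). Per3 (ENSMUSG00000028957, chromosome 4 from 151003652 to 151044665) was at 7.96, 9.77, 8.63 and 13.3 CPM in tumor and at 57.5, 14.7, 19.2 and 52.8 CPM in small intestine. The highest tumor library, replicate 4, came near the lowest small intestine library, replicate 2. Per3 showed -1.86 ± 0.44 (edgeR adjusted p = 0.00354), and was not called with library totals alone (-0.99, edgeR adjusted p = 0.0607) or in the FPKM table (-0.61, limma adjusted p = 0.124).

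Per1, which responds rapidly to light and glucocorticoids in mouse tissues, was the least separated of the Per genes. Per1 (ENSMUSG00000020893, chromosome 11 from 69095217 to 69109960) was at 26.5, 40.1, 32.9 and 35.9 CPM in tumor and at 60.6, 38.9, 63.2 and 77.2 CPM in small intestine. Small intestine replicate 2 lay inside the tumor range, so the groups overlapped. A log2 fold change of -0.83 ± 0.20 passed with TMM scaling (edgeR adjusted p = 0.00481) but turned to 0.04 with library totals alone (edgeR adjusted p = 0.852) and to 0.08 in the FPKM table (limma adjusted p = 0.653).

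The cryptochromes are the strongest repressors of ARNTL-CLOCK. Cry2 (ENSMUSG00000068742, chromosome 2 from 92403646 to 92434043) was at 12.5, 14.7, 10.5 and 19.0 CPM in tumor and at 58.6, 33.4, 41.1 and 62.8 CPM in small intestine. The groups did not overlap, and within small intestine replicates 1 and 4 were again the highest. Cry2 showed a log2 fold change of -1.79 ± 0.24 (edgeR adjusted p = 0.000118), -0.92 with library totals alone and -0.71 in the FPKM table (limma adjusted p = 0.00921). Cry1 (ENSMUSG00000020038, chromosome 10 from 85131700 to 85185064) was at 15.2, 16.3, 12.8 and 20.9 CPM in tumor and at 27.8, 38.9, 19.6 and 32.8 CPM in small intestine. Here tumor replicate 4 exceeded small intestine replicate 3, and the highest small intestine library was replicate 2. The log2 fold change of Cry1, -0.87 ± 0.22 with TMM scaling (edgeR adjusted p = 0.00542), was 0.01 with library totals alone and 0.06 in the FPKM table, neither of which passed (edgeR adjusted p = 0.975, limma adjusted p = 0.798).

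Arntl and Clock form the activating pair. Arntl (ENSMUSG00000055116, chromosome 7 from 113207465 to 113314126) was at 9.0, 9.79, 7.95 and 7.55 CPM in tumor and at 10.6, 33.3, 16.0 and 21.9 CPM in small intestine. The tumor libraries were alike, whereas small intestine replicate 1 stood just above them and replicate 2 far above. Arntl showed a log2 fold change of -1.25 ± 0.31 (edgeR adjusted p = 0.00466), which did not pass with library totals alone (-0.37, edgeR adjusted p = 0.263) or in the FPKM table (-0.24, limma adjusted p = 0.36). Clock (ENSMUSG00000029238, chromosome 5 from 76209868 to 76304792) was at 45.6, 49.5, 49.1 and 43.4 CPM in tumor and at 65.9, 74.4, 56.2 and 77.7 CPM in small intestine. The groups did not overlap with TMM scaling, at a log2 fold change of -0.55 ± 0.11 (edgeR adjusted p = 0.00161). The direction turned with the scaling, to 0.32 with library totals alone (edgeR adjusted p = 0.00999) and to 0.36 in the FPKM table (limma adjusted p = 0.00622).

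**Figure D2:**
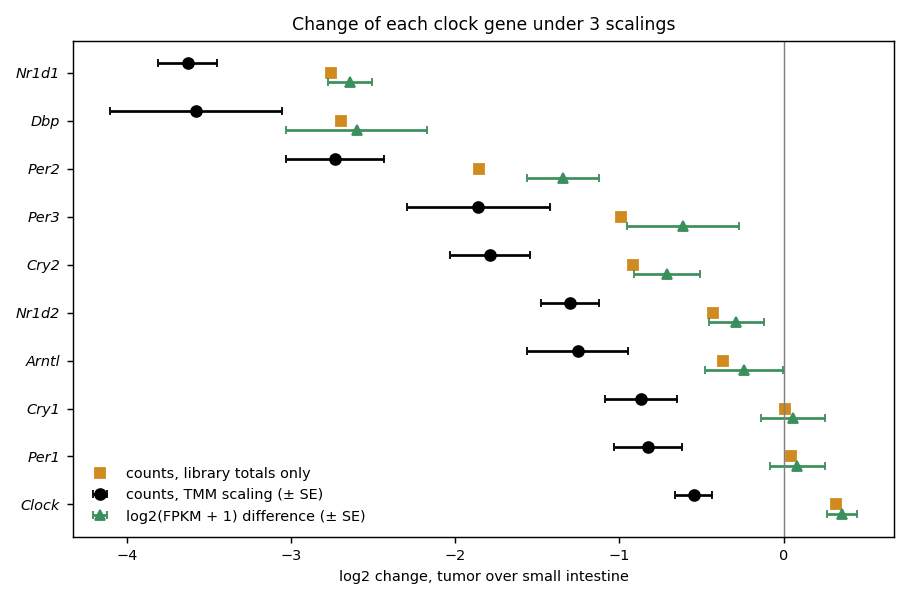
Log2 change of each clock gene, tumor over small intestine, from counts with TMM scaling (black circles, ± SE), from counts with library totals alone (orange squares) and as a difference of log2(FPKM + 1) (green triangles, ± SE). Nr1d1, Dbp, Per2 and Cry2 stay left of 0 in all 3, while Cry1, Per1 and Clock lie at or right of 0 in the last 2. Per3, Arntl and Nr1d2 also stay left of 0, but did not pass in the FPKM table.

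Ratios between genes of the same library need no scaling between libraries. The log2 ratio of Arntl to Nr1d1 read counts was -0.91, -0.77, -0.63 and -1.26 in tumor and -4.25, -2.48, -3.29 and -3.50 in small intestine. The groups did not overlap, and the means differed by 2.49, tumor being higher. For Arntl to Dbp the log2 ratio was 1.61, 1.66, 1.40 and 0.28 in tumor and -2.53, 0.88, -0.54 and -1.87 in small intestine. Small intestine replicate 2 lay above tumor replicate 4, so these groups overlapped. The log2 ratio of Cry1 to Per3 was 0.93, 0.74, 0.57 and 0.65 in tumor and -1.05, 1.41, 0.03 and -0.69 in small intestine. The tumor values fell inside the small intestine range.

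**Figure D3:**
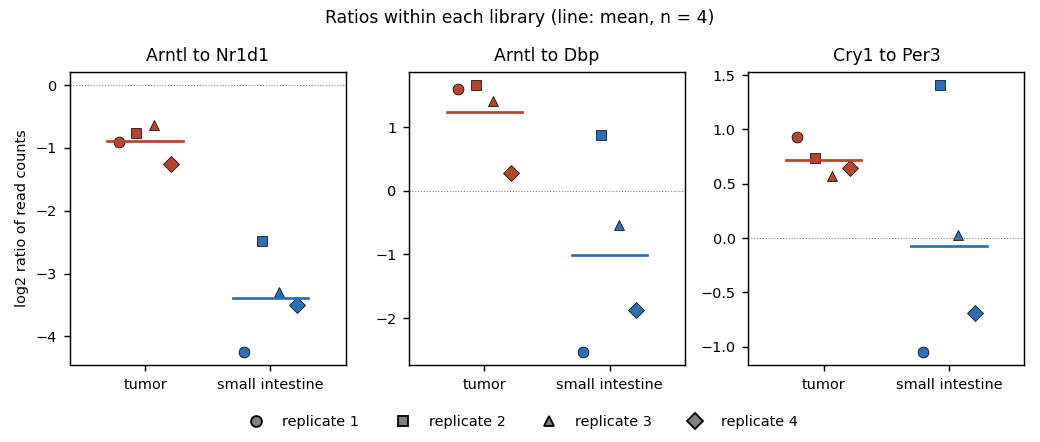
Log2 ratios of read counts within each library for Arntl to Nr1d1, Arntl to Dbp and Cry1 to Per3, in tumor (left) and small intestine (right), with the mean of 4 libraries as a line and marker shapes for replicate numbers. The tissues are apart for Arntl to Nr1d1, and the small intestine libraries spread more widely than the tumor libraries in all 3 panels.

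Per length of transcript (FPKM), the order of levels differed between the tissues. In tumor Nr1d2 was highest at 13.3 ± 0.294 FPKM (SD, n = 4), above Clock in 4 of 4 libraries. Clock, Nr1d1, Per1 and Cry1 followed between 8.28 and 6.89 FPKM, with neighbours whose ranges overlapped. Dbp, Cry2, Arntl and Per3 came next, from 3.87 to 2.28 FPKM, and Per2 was lowest at 1.36 ± 0.117 FPKM with no overlap with Per3. In small intestine Nr1d1 was highest at 54.3 ± 7.43 FPKM, followed by Dbp at 32.2 ± 19.2 FPKM. Nr1d1 exceeded Dbp in each of the 4 small intestine libraries although their ranges overlapped. Nr1d2 followed at 16.9 ± 4.53 FPKM, and the other 7 lay between 7.01 FPKM for Per1 and 4.28 FPKM for Arntl, each overlapping its neighbour.

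Libraries of the same tissue also differed from each other. Relative to the tissue mean on the log2 scale, Dbp deviated by -0.29, -0.22, -0.27 and 0.78 in tumor replicates 1 to 4, so that replicate 4 alone stood above the mean. Arntl deviated by 0.08, 0.20, -0.10 and -0.18 in tumor. In small intestine, replicates 1 and 4 were the highest 2 libraries for 6 of the 10 clock genes, namely Per2, Per3, Cry2, Nr1d1, Nr1d2 and Dbp. For Nr1d1 replicate 1 exceeded replicate 2 only 1.08-fold. How often this pair was highest over all genes was not counted, so the 6 are not shown to be unusual. In small intestine Dbp deviated by 0.70, -1.07, -0.71 and 1.08 in replicates 1 to 4, and Per3 by 0.92, -1.05, -0.66 and 0.79. Arntl deviated by -0.82, 0.83, -0.23 and 0.22 in small intestine, so that replicate 1, high for Dbp and Per3, was lowest for Arntl, and replicate 2, lowest for both, was highest for Arntl. Replicate 4 was high for all 3. The ratio of the highest to the lowest library was 2.10 in tumor and 4.43 in small intestine for Dbp. It was 1.67 in tumor and 3.92 in small intestine for Per3, 1.30 in tumor and 3.15 in small intestine for Arntl, and 1.22 in tumor and 2.56 in small intestine for Per2. It was closer between the tissues for Cry2, at 1.80 in tumor and 1.88 in small intestine, for Nr1d1, at 1.46 in tumor and 1.59 in small intestine, and for Cry1, at 1.63 in tumor and 1.98 in small intestine. Clock, Per1 and Nr1d2 had ratios of 1.10 to 1.51 in tumor and 1.38 to 1.99 in small intestine.

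The spread of genes at large also differed between the tissues. Over 7906 genes with at least 10 CPM in each tissue, the median SD of log2(CPM + 1) was 0.0987 among tumor libraries and 0.196 among small intestine libraries. Of the 6 clock genes that reach this level, Clock had an SD of 0.0884 in tumor and 0.206 in small intestine, near both medians. Nr1d2 had 0.0561 in tumor and 0.391 in small intestine, below the tumor median and above that of small intestine. The SD of Nr1d1, at 0.230 in tumor and 0.276 in small intestine, exceeded that of 87.7% of these genes in tumor and of 73.0% in small intestine, and for Cry2 the shares were 93.8% in tumor and 90.7% in small intestine. Per1 and Cry1 had an SD of 0.245 and 0.275 in tumor, and of 0.410 and 0.406 in small intestine. Dbp, Per3, Arntl and Per2 are under 10 CPM in tumor and so not among these genes. The SD of Dbp was 0.422 in tumor and 1.02 in small intestine.

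Summed marker levels differed among the small intestine libraries too. In replicates 1 to 4 the proliferation and crypt markers summed to 190, 307, 285 and 203 CPM, lower in the libraries where Dbp was higher. Enteric neuron and glia markers, at 11.7, 8.28, 7.01 and 15.8 CPM, were higher in those libraries. The remaining marker sets had neither split. Among them were lymphocytes at 239, 424, 183 and 106.6 CPM, fibroblasts at 61.0, 45.2, 17.1 and 18.2 CPM, and endothelium at 21.3, 20.1, 7.29 and 6.85 CPM. How often such a split arises over all genes was not counted, so neither split is shown to be unusual. Only 3 of the 6 enteric neuron and glia markers were measured well enough to test. The part of the time of collection, which the labels do not give, and of cell makeup in this spread was not tested.

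**Figure D4:**
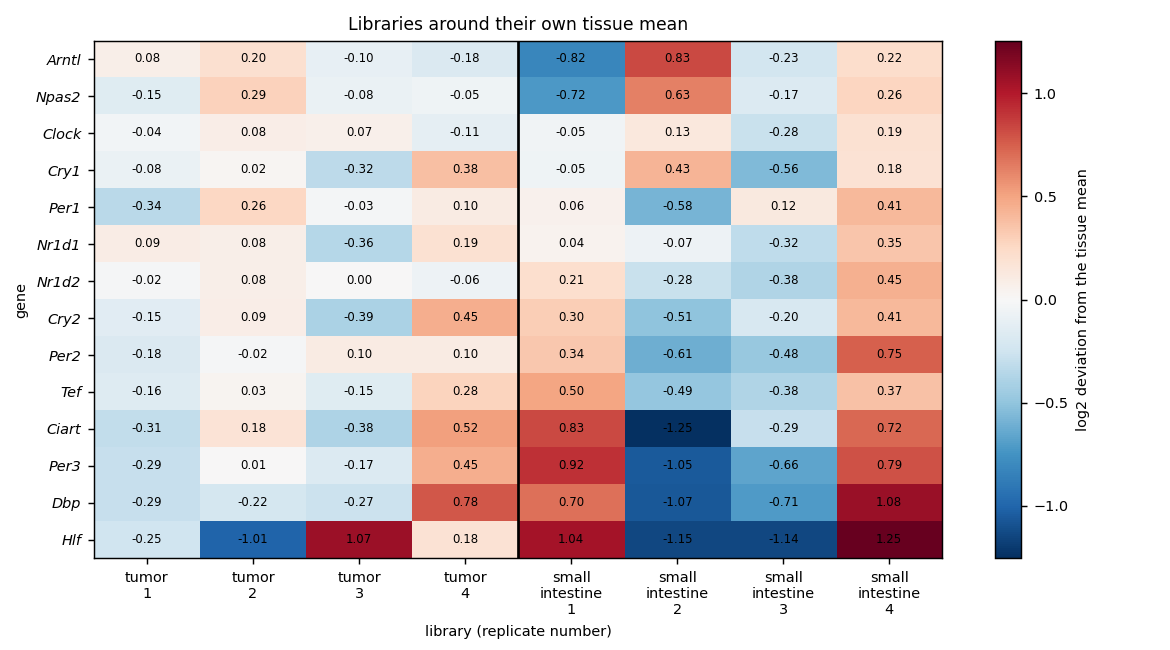
Log2 deviation of each library from the mean of its own tissue for the 10 clock genes and 4 partner genes, tumor libraries to the left of the line and small intestine libraries to its right. Small intestine replicates 1 and 4 are red and replicates 2 and 3 blue from Nr1d2 down to Hlf, while Arntl and Npas2 in the top rows are lowest in replicate 1 and highest in replicate 2.

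The genes most like Dbp in these deviations were sought among 7834 protein-coding genes with at least 10 CPM in each tissue. Over the 8 libraries the closest 5 candidates were Ppp2r5d, Qdpr, Zswim8, Tmem189 and Capn15, with a Pearson likeness of 0.96 to 0.97. Clock genes below 10 CPM in tumor were not candidates, and of these Per3 had a likeness to Dbp of 0.97, above each of the 5, and Per2 of 0.94. The likeness to Dbp was 0.96 for Tef, 0.93 for Ciart, 0.92 for Cry2 and 0.85 for Nr1d2. It was lower for Nr1d1 (0.70), Per1 (0.68), Cry1 (0.24) and Clock (0.18), and it was negative for Arntl (-0.49). For Arntl the closest 5 candidates were Mfsd14a, Itgb1, Sptlc2, Trp53bp2 and Atp6v1b2, at 0.98 to 0.99. Among the other clock genes the likeness to Arntl ran from -0.61 for Per3 to 0.56 for Clock. These values describe 8 libraries that share their scaling, and they carry no test.

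Partners of the clock loops changed in both directions. Of 12 such genes 11 were measured well enough to test, and 4 rose (Arntl2, Timeless, Rora and Bhlhe40), 5 fell (Hlf, Npas2, Tef and Ciart among them) and 2 did not pass, where 38.9% of all genes were called higher and 35.4% lower. Each of the 9 kept its direction with library totals alone, where Ciart was not called and Nfil3 was called higher. The median over the 11 was -0.78, beside 0.07 over all genes.

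Among partners of the activating pair, Npas2, which can stand in for Clock, was at 7.15, 9.71, 7.53 and 7.67 CPM in tumor and at 26.2, 66.9, 38.6 and 52.0 CPM in small intestine. Its small intestine libraries had the order of Arntl, lowest in replicate 1 and highest in replicate 2, and no tumor library reached them. The log2 fold change of Npas2 was -2.52 ± 0.27 (edgeR adjusted p = 2.42e-05). Arntl2, a paralogue of Arntl that also pairs with CLOCK, went the other way, at 14.4, 13.8, 15.1 and 15.8 CPM in tumor against 0.538, 0.177, 0.252 and 0.172 CPM in small intestine. Its transcript was nearly absent from each small intestine library. The log2 fold change of Arntl2 was 5.68 ± 0.37 (edgeR adjusted p = 1.01e-06). In tumor Arntl2 thus stood at 14.8 ± 0.833 CPM beside 8.57 ± 1.02 CPM for Arntl, in units that do not account for length.

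The ROR nuclear receptors activate Arntl through the same RORE sequences that the REV-ERBs occupy. Rora rose, at 6.39, 7.55, 6.51 and 7.17 CPM in tumor against 2.76, 3.94, 1.99 and 1.73 CPM in small intestine (log2 fold change 1.40 ± 0.27, edgeR adjusted p = 0.00108). Rorb held at most 1 count in any library and was not tested.

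The PAR-domain relatives of Dbp fell as well. Tef was at 32.0, 36.4, 32.0 and 43.4 CPM in tumor and at 242, 122, 131 and 220.2 CPM in small intestine (log2 fold change -2.31 ± 0.24, edgeR adjusted p = 1.98e-05). Hlf was at 0.419, 0.248, 1.05 and 0.564 CPM in tumor and at 9.41, 2.07, 2.08 and 10.9 CPM in small intestine (log2 fold change -3.43 ± 0.70, edgeR adjusted p = 0.00155). For both, small intestine replicates 1 and 4 were the highest, as for Dbp. Nfil3, a repressor that binds the same D-box sequences, was at 17.0, 14.4, 15.2 and 11.2 CPM in tumor and at 8.58, 21.4, 16.3 and 8.73 CPM in small intestine. Its small intestine libraries had the reverse split, high in replicates 2 and 3, and the tissues overlapped. The log2 fold change of Nfil3, 0.07 ± 0.30, did not pass (edgeR adjusted p = 0.837), and with library totals alone it was 0.93 (edgeR adjusted p = 0.0184).

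Among other repressors, Ciart was at 1.75, 2.45, 1.66 and 3.10 CPM in tumor and at 12.9, 3.04, 5.92 and 11.9 CPM in small intestine. Tumor replicate 4 slightly exceeded small intestine replicate 2, and small intestine replicates 1 and 4 were again the highest. Ciart showed a log2 fold change of -1.91 ± 0.45 (edgeR adjusted p = 0.00353), and -1.05 with library totals alone (edgeR adjusted p = 0.0578). Bhlhe40 and Bhlhe41 encode DEC repressors that compete for E-boxes. Bhlhe40 was at 260.1, 282, 245 and 180.4 CPM in tumor and at 89.9, 94.9, 86.9 and 172 CPM in small intestine. Small intestine replicate 4 came close to the lowest tumor library, and the log2 fold change of Bhlhe40 was 1.13 ± 0.24 (edgeR adjusted p = 0.00205). Bhlhe41 was at 0.585, 0.631, 1.27 and 1.30 CPM in tumor and at 2.69, 2.30, 1.30 and 0.190 CPM in small intestine. It did not pass at -0.78 ± 0.65 (edgeR adjusted p = 0.302) and turned to 0.06 with library totals alone, and it was called lower without small intestine replicate 4 (-1.15, edgeR adjusted p = 0.0303). Timeless, whose mammalian product works mainly at replication forks, was at 33.1, 35.2, 27.6 and 41.0 CPM in tumor and at 10.1, 7.83, 10.2 and 5.36 CPM in small intestine (log2 fold change 2.03 ± 0.22, edgeR adjusted p = 2.39e-05). Proliferation and crypt markers rose beside Timeless in 6 of 6 cases, where 38.9% of all genes were called higher. Their summed level was 956 to 1146 CPM in tumor against 190 to 307 CPM in small intestine. The part of these markers' cells in the value of Timeless was not tested.

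**Figure D5:**
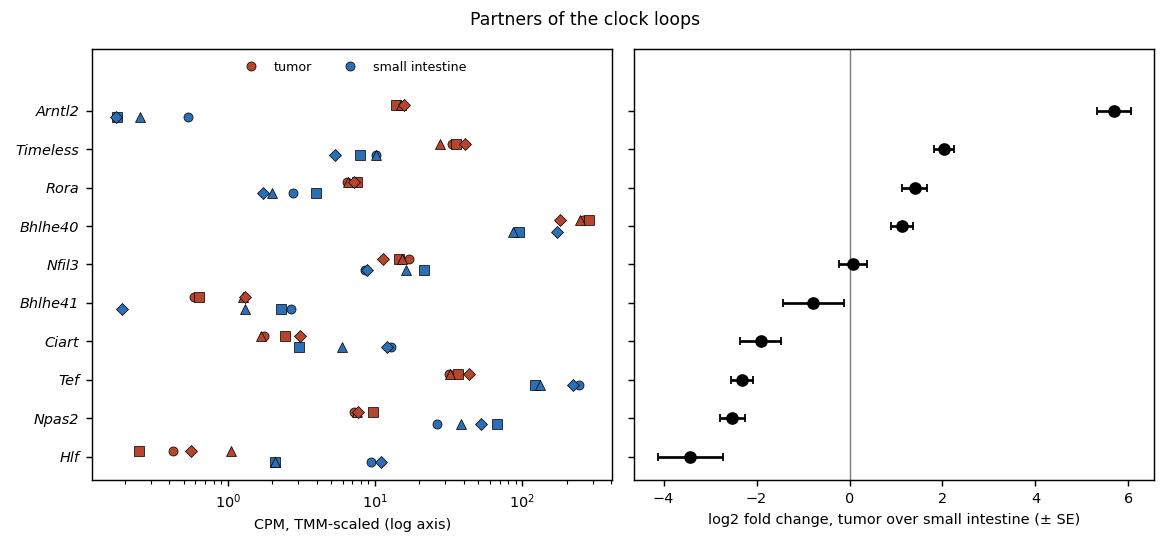
TMM-scaled CPM of 10 partner genes in each library on a log axis (left panel, tumor in red above small intestine in blue, marker shapes as replicate numbers) and their log2 fold change, tumor over small intestine, with SE (right panel). Arntl2 lies far to the right of 0 and Hlf, Npas2 and Tef to the left, and Nfil3 and Bhlhe41 lie nearest to 0.

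Of 17 genes for enzymes and other modifiers of clock proteins, 4 rose, 8 fell and 5 did not pass with TMM scaling, where 38.9% of all genes were called higher and 35.4% lower. With library totals alone 11 rose and 3 fell, near the shares of all genes (62.0% higher and 17.6% lower). Csnk1e, which encodes casein kinase 1 epsilon, a kinase of the PER proteins, was at 87.9 ± 3.59 CPM in tumor against 16.0 ± 1.41 CPM in small intestine (mean ± SD of 4 libraries). Its log2 fold change was 2.46 ± 0.09 (edgeR adjusted p = 5.78e-08). Its relative Csnk1d showed -0.24 ± 0.08 with TMM scaling (edgeR adjusted p = 0.0287), called in only 2 of 8 fits that left out a library, and turned to 0.63 with library totals alone. Nono, an RNA-binding partner of PER proteins, showed a log2 fold change of 1.28. Prkaa1, a catalytic subunit of the AMP-activated kinase, which marks CRY1 for degradation, showed 0.40. Prkaa2, the other catalytic subunit, went the other way at -1.23 ± 0.25 with TMM scaling (edgeR adjusted p = 0.00161). With library totals alone Prkaa2 was not called (-0.35, edgeR adjusted p = 0.184). Usp2, a deubiquitinase with a strongly rhythmic transcript, was at 3.82, 4.10, 2.51 and 8.43 CPM in tumor and at 85.4, 93.3, 96.5 and 142 CPM in small intestine. Its highest tumor library was replicate 4, as for Dbp, and its log2 fold change was -4.47 ± 0.38 (edgeR adjusted p = 5.31e-06). Csnk2a1, a casein kinase 2 subunit, showed -1.40. The falls of Usp2 and Csnk2a1 held with library totals alone.

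Of 14 tested output genes, whose transcription the clock drives in at least some tissues, 4 rose, 9 fell and 1 did not pass, where 38.9% of all genes were called higher and 35.4% lower. With library totals alone 5 rose and 6 fell, beside 62.0% and 17.6% of all genes. The peptide transporter gene Slc15a1, the sodium-glucose transporter gene Slc5a1 and the nuclear receptor gene Ppara had the largest falls, at log2 fold changes of -6.71 ± 0.22, -6.44 ± 0.17 and -4.91 ± 0.32. Slc5a1 is also among the enterocyte markers, of which 10 of 10 fell. Their summed level was 771 to 1124 CPM in tumor against 60259 to 74862 CPM in small intestine. The part of fewer absorptive cells in the values of the output genes, falling or rising, was not tested. The G protein regulator Rgs16, the sodium-proton exchanger Slc9a3 and the lipid phosphatase Lpin1 had the largest rises, at 4.69 ± 0.42, 2.53 ± 0.30 and 1.46 ± 0.21. Gys2 held 5 counts in 1 tumor library and 0 in the others and was not tested.

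Tissue makeup differed widely between the groups. Lymphocyte markers fell in 6 of 6 cases, with a summed level of 26.8 to 47.1 CPM in tumor against 106.6 to 424 CPM in small intestine. Epithelial markers fell in 4 of 5 cases, with a summed level of 4769 to 7028 CPM in tumor against 12517 to 18288 CPM in small intestine. Fibroblast markers rose in 6 of 6 cases (1155 to 1860 CPM in tumor against 17.1 to 61.0 CPM in small intestine), endothelial in 5 of 5, neutrophil in 4 of 4, macrophage in 5 of 5 tested, smooth muscle in 4 of 6 and enteric neuron and glia in 3 of 3 tested. Over all genes 38.9% were called higher and 35.4% lower, so a called marker by itself was common. No marker listed was at 0 throughout a tissue. The part of this makeup in the clock gene values was not tested. Gene-assigned counts ran from 53856561 to 67371180 per tumor library and from 62347648 to 84433335 per small intestine library, so that 3 counts, the floor, correspond to 0.0355 to 0.0557 CPM before TMM scaling, and each clock gene held at least 215 counts in each library. Apc itself was at 131.7 to 145 CPM in tumor against 88.9 to 145 CPM in small intestine, which does not separate mutant from normal transcript.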

How the data were processed

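Tables of 8 libraries were used, 1 of raw read counts and 1 of FPKM (per length and library size), both as deposited. HTSeq 0.6.0, Cufflinks 2.2.1, STAR, FastQC and build GRCm38 are named in the submitters' processing notes. Annotation release, strand setting and the handling of reads shared by genes: not given in the sources used here. Ensembl identifiers gave a symbol for 42462 of 43629 genes, with coordinates from GENCODE on GRCm38 and start windows from RefSeq.

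Counts were tested with edgeR 4.0.16 in R 4.3.3 (quasi-likelihood, TMM, filterByExpr, tissue as the only term), and log2(FPKM + 1) with limma 3.58.1 (trend) for genes with a mean of at least 1 FPKM. P values were adjusted by Benjamini-Hochberg over all genes tested, and under 0.05 was called. The SE of a fold change was its size divided by the root of F. Both tests were checked on simulated data with 200 genes changed equally in both directions. Of the 2-fold changes edgeR recovered 44% and limma 54.2%, and 6.02% and 8.46% of their calls were false. The simulation held no overall shift between tissues, so it did not check the choice of scaling. The members and the lists of other genes were chosen with earlier results of these data known. All clock genes and loop partners are named, and from the other 2 lists up to 3 called genes with the largest change in each direction. Csnk1d, Prkaa2, Wee1, Alas1, Thra and Sphk2 were named after their values were seen. Some genes that this rule names are not reported here. No pair of libraries in a group was alike enough to be 1 library (chi-square over its degrees of freedom at least 38.9). Alternatives were other scalings, filters and pseudocounts, DESeq2 1.42.0, a replicate block and each library left out.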

Additional observations from a re-analysis of the deposited data

Results flagged for a closer look

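Each of 42 groups of 4 libraries (clock genes and loop partners tested, by tissue) was examined for a library far from the others, where chance gives about 1 in 20. Dbp in tumor replicate 4, at 6.20 CPM, lay far from the 2.96 to 3.10 CPM of the other tumor libraries. Bhlhe40 in small intestine replicate 4, at 172 CPM, lay far from the 86.9 to 94.9 CPM of the other small intestine libraries. No other group was flagged, and this many is about what that share gives over 42 groups.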

How the results depend on the processing

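All 10 clock genes were called lower in tumor, and none higher, with DESeq2's size factors, without the 50 most abundant genes in the scaling, with no low-count filter, with a minimum mean of 1 CPM, with the DESeq2 Wald test and without each library in turn. Library totals alone gave 5 lower and 1 higher, 11 higher and 3 lower among the protein modifiers, and 10564 higher and 2996 lower over all genes. They turned Clock (0.32), Per1 (0.0432), Cry1 (0.00807) and Bhlhe41 (0.0567), and ended the calls of Arntl, Per3 and Ciart. Nfil3 turned to -0.11 without small intestine replicate 1 and -0.10 without replicate 4, and ranged up to 0.36 over the libraries left out. In the FPKM table, where 4 clock genes were lower and 1 higher, Per1 turned to -0.0601 without small intestine replicate 2 (range up to 0.185), and Cry1 to -0.0619 without tumor replicate 4 and -0.0890 without small intestine replicate 3 (range up to 0.187); Per3 passed without small intestine replicate 2 (-0.87, limma adjusted p = 0.0273) and Nr1d2 without replicate 3 (-0.40, limma adjusted p = 0.0359). Pseudocount and filter changed no FPKM call of the 10. Csnk1d, called lower, was called in 2 of 8 fits that left out a library, Wee1 in 5 and Alas1 in 3. Same-numbered tumor and small intestine libraries did not deviate together (correlations over 17029 genes of -0.08, -0.14, 0.00 and -0.21), and tumor replicates 1 and 2 correlated best with small intestine replicate 4, so the numbers were not taken as pairs; with the replicate block 10 clock genes were called lower and 0 higher, and 6301 genes higher and 5592 lower over all. Library totals alone moved the median log2 fold change of all genes up by 0.86. A fall of about that size or less can turn with this scaling, as it did for Cry1 (-0.87 with TMM scaling).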
